A study of Homo sapiens with 9 samples.

Results

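The genes described here are the 10 core genes of N6-methyladenosine (m6A), the most common internal modification of messenger RNA: the writers METTL3, METTL14, WTAP and VIRMA, the erasers ALKBH5 and FTO, and the YTH-domain readers YTHDC1, YTHDF1, YTHDF2 and YTHDF3. They were chosen by name, with earlier results of these data known. Their Ensembl identifiers matched 10 of the 61853 genes in the deposited table. All 10 passed the filter on low counts. They were measured in 293T cells, a human embryonic kidney line carrying the SV40 large T antigen, in 2 groups of 3 libraries described as biological replicate sets. Scramble cells were labelled wild type and received a scramble shRNA, and DIS3-sh1 cells were labelled as a DIS3 knockdown and received the shRNA DIS3-sh1. DIS3 is the catalytic nuclease of the nuclear RNA exosome. The group DIS3-sh2 was not analysed here. How the shRNAs were delivered and for how long was not given in the sources used here. With 1 shRNA analysed, loss of DIS3 and any other effect of that shRNA cannot be told apart.

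In the m6A pathway, METTL3 transfers the methyl group and METTL14 holds the RNA substrate. WTAP brings that pair to nuclear speckles, and VIRMA scaffolds the larger complex. ALKBH5 and FTO are iron-dependent dioxygenases that remove the mark. YTHDC1 binds m6A in the nucleus and acts in splicing and export, and the YTHDF proteins bind it in the cytoplasm, where YTHDF2 recruits the CCR4-NOT deadenylase. The measurement was of RNA per gene in libraries depleted of ribosomal RNA. It holds no information on the m6A mark itself or on the proteins.

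The Scramble libraries held 20722775 to 23532148 counts and the DIS3-sh1 libraries 19800892 to 21100677. DIS3, the target, went from 180 ± 5.63 CPM (counts scaled to the size of the library) in Scramble to 27.4 ± 0.72 CPM in DIS3-sh1 (SD, n = 3 each). DIS3-sh1 replicate 1 stood apart from the rest of its group: the chi-square per degree of freedom between its gene counts and those of replicates 2 and 3 was 5.83 and 5.92, against 1.61 between replicates 2 and 3 and 1.90 to 1.98 among the Scramble libraries. All 5 marker genes listed for the 293T lineage were detected. Their levels summed to 384 to 388 CPM per Scramble library, against 264 to 274 CPM per DIS3-sh1 library. The list did not move as one. By the test described below, 4 markers fell and 1, PAX2, rose (log2 fold change 1.36 ± 0.20 SE). PAX2 averaged 1.66 CPM over the Scramble libraries. LIN28B, which fell, averaged 172 CPM there and was the largest part of the sum. Of 7 markers of other cell types, CD3E, COL1A2 and HBB had no count in any library, and the list summed to 14.3 to 15.4 CPM in Scramble and 23.7 to 27.7 CPM in DIS3-sh1, nearly all from COL1A1. The part of either list in the results below was not tested.

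Promoter sequence from RefSeq (GRCh38.p14) was found for 8 of the 10 genes. VIRMA and YTHDF3 had no entry. The 250 bases before each annotated start were searched on both strands for GGGCGG (the GC box of SP and KLF factors), CCGGAAG (the site of ETS factors), CCAAT (the box of NF-Y), CACGTG (an E-box), TGACGTCA (a cyclic AMP response element) and TATAAA (the TATA box). The stretches below belong to 5 of the genes that fell in DIS3-sh1. They are 5′ to 3′ on the strand of the gene, cut to the longest run outside every GENCODE exon, with matches to the 6 motifs in capitals. They lie at chr20:63216235-63216381 (YTHDF1, minus strand), chr4:68350091-68350340 (YTHDC1, minus strand), chr14:21511376-21511590 (METTL3, minus strand), chr4:118685342-118685367 (METTL14, plus strand) and chr6:159727358-159727499 (WTAP, plus strand).
YTHDF1: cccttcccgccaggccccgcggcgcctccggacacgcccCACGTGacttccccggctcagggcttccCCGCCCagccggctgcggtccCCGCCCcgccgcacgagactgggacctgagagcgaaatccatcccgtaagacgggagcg
YTHDC1: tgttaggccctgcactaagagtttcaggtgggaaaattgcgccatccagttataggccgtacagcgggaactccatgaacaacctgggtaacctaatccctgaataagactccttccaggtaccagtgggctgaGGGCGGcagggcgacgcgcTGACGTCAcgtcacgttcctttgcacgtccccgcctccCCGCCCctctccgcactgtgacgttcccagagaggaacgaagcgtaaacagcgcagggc
METTL3: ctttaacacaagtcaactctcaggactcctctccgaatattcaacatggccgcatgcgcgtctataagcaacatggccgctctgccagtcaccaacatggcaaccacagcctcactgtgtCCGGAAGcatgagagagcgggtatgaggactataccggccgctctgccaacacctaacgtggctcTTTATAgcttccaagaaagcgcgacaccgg
METTL14: agaaggaggcgggaCTTCCGGgccaa
WTAP: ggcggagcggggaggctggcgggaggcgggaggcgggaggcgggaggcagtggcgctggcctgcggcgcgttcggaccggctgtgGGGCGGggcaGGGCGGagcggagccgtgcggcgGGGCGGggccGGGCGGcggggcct

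The 5 stretches shared no single motif. The YTHDF1 stretch held an E-box at bases -211 to -206 from the start, a match found in 6.34% of all 35116 promoter windows, and GC boxes at -183 to -178 and -162 to -157 (42.6% of windows). YTHDC1 held the cyclic AMP response element at -97 to -90, which 1.65% of windows hold, and 2 GC boxes. METTL3 and METTL14, whose proteins form the methyltransferase pair, each held an ETS match, at -130 to -124 and at -36 to -30 (8.52% of windows). The METTL3 stretch also held a TATA match at -65 to -60, on the strand opposite to the gene (10.7% of windows, either strand). The WTAP stretch came from the downstream of its 2 start sites and held 4 GC boxes between -63 and -15. G and C made up 76.4% of that WTAP window and 77.6% of the YTHDF1 window, against a median of 58% over all windows. The YTHDC1, METTL14 and METTL3 windows were at 58.8%, 57.2% and 53.2%. Windows of ALKBH5 and YTHDF2, not printed, held GC boxes, and the FTO window of 250 bases held no match to any of the 6. CCAAT, found in 32.0% of windows, matched only outside the printed stretches. It lay at -19 to -15 in METTL14, at -144 to -140 in the upstream WTAP window and at -203 to -199 in the downstream YTHDF2 window. These matches describe letters only.

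Most of the 10 chosen genes were lower in DIS3-sh1. Of the 10 genes, 8 fell, 1 rose (FTO) and 1 was not called (YTHDF3), by edgeR's quasi-likelihood test with Benjamini-Hochberg adjustment over 19591 genes. Of all tested genes, 67% were called, 32.6% lower and 34.5% higher. Among tested coding genes these shares were 38.7% and 36.2%. The median log2 fold change of the 10 was -0.40, against 0.02 over all tested genes and -0.01 over coding genes. The 3 libraries of a group did not overlap those of the other for 9 of the 10, and for 69.8% of all tested genes. That also held for 10589 of the 13816 tested coding genes. Every DIS3-sh1 library was lower for 8 of the 10, and for 34.2% of all tested genes. CPM are relative to the scaled size of a library. Fewer RNA molecules of a gene per cell and more of other RNAs therefore cannot be told apart. Without DIS3-sh1 replicate 1, 7 of the 10 were called lower.

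**Figure D1:**
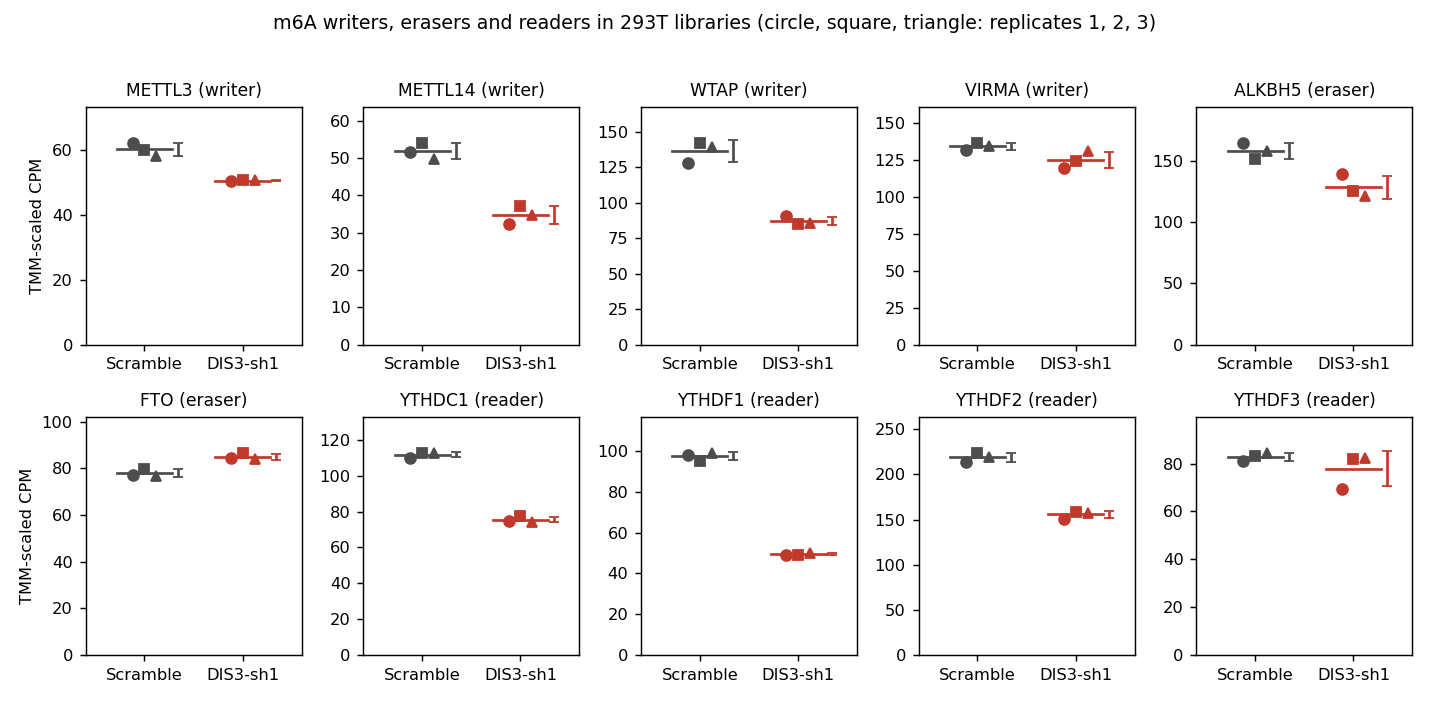
TMM-scaled CPM of each gene in each library, on axes that start at 0. Symbols are replicates 1 to 3, horizontal lines are group means and bars are SD (n = 3). YTHDF1 separates the groups most widely, and in the YTHDF3 panel DIS3-sh1 replicate 1 lies below the other 5 libraries.

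Among the writers, all 4 fell, by unequal amounts. WTAP (ENSG00000146457.16, chromosome 6, 159725585 to 159756319, plus strand) fell most. It measured 127.6, 142.1 and 139.5 CPM in Scramble and 90.4, 85.1 and 85.8 CPM in DIS3-sh1. Every DIS3-sh1 library was therefore below every Scramble library, and the fitted level was 63.9% of Scramble (log2 fold change -0.65 ± 0.04 SE, adjusted p = 6.95e-15).

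METTL14 (ENSG00000145388.15, chromosome 4, 118685368 to 118715433, plus strand) measured 51.7, 54.0 and 49.6 CPM in Scramble. In DIS3-sh1 it measured 32.4, 37.2 and 34.7 CPM, with replicate 1 lowest. The groups did not overlap, and the log2 fold change was -0.58 ± 0.06 (adjusted p = 1.93e-10), which is 67.1% of the Scramble level.

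Its catalytic partner fell less. METTL3 (ENSG00000165819.12, chromosome 14, 21498133 to 21511375, minus strand) measured 62.2, 60.0 and 58.2 CPM in Scramble and 50.3, 50.6 and 50.6 CPM in DIS3-sh1. The SD of the 3 DIS3-sh1 libraries was 0.15 CPM, and the log2 fold change was -0.25 ± 0.05 (adjusted p = 2.62e-05). Of the bases in METTL3 exons, 6.58% also lie in exons of TOX4 on the opposite strand, and whether counting took strand into account is unknown.

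VIRMA (ENSG00000164944.12, chromosome 8, 94487693 to 94553529, minus strand) changed least among the writers. It measured 131.7, 136.7 and 134.4 CPM in Scramble and 119.9, 124.2 and 131.1 CPM in DIS3-sh1, so the closest libraries of the groups were nearly equal. The log2 fold change was -0.10 ± 0.04 (adjusted p = 0.0150). VIRMA was no longer called under upper-quartile scaling (-0.02, adjusted p = 0.606), without Scramble replicate 2 (0.0527) and without DIS3-sh1 replicate 1 (0.0760), and its adjusted p ranged from 0.0036 to 0.606 over 13 alternatives.

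The erasers moved in opposite directions. ALKBH5 (ENSG00000091542.9, chromosome 17, 18183078 to 18209954, plus strand) measured 164.6, 151.5 and 158.1 CPM in Scramble and 138.8, 125.2 and 121.1 CPM in DIS3-sh1. The groups did not overlap, although DIS3-sh1 replicate 1 was nearer to Scramble than the other 2, and the log2 fold change was -0.30 ± 0.04 (adjusted p = 2.79e-07). Exons of AC087164.1 on the opposite strand cover 11.2% of ALKBH5's exonic bases.

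FTO (ENSG00000140718.21, chromosome 16, 53701692 to 54158512, plus strand) was the only one of the 10 that rose. It measured 77.1, 79.7 and 76.6 CPM in Scramble and 84.4, 86.5 and 84.1 CPM in DIS3-sh1. All 3 DIS3-sh1 libraries were above all 3 Scramble libraries, by a log2 fold change of 0.13 ± 0.04 (adjusted p = 0.00691). With DESeq2 the call was lost (0.11, adjusted p = 0.0572), and the log2 fold change lay between 0.11 and 0.21 over the 13 alternatives.

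The readers held the largest fall of the 10. YTHDF1 (ENSG00000149658.18, chromosome 20, 63195429 to 63216234, minus strand) measured 98.3, 95.5 and 99.1 CPM in Scramble and 48.9, 49.2 and 49.9 CPM in DIS3-sh1. It stood at 50.6% of the Scramble level, with a log2 fold change of -0.98 ± 0.04 (adjusted p = 4.74e-19). Of all tested genes, 4.12% had a lower log2 fold change than YTHDF1.

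YTHDC1, the nuclear reader (ENSG00000083896.13, chromosome 4, 68310387 to 68350089, minus strand), measured 110.02, 112.7 and 112.6 CPM in Scramble and 74.98, 77.3 and 74.5 CPM in DIS3-sh1. The groups were far apart relative to their SDs of 1.51 and 1.54 CPM. The log2 fold change was -0.56 ± 0.04 (adjusted p = 4.33e-14), or 67.6% of Scramble.

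YTHDF2, the reader that links m6A to deadenylation (ENSG00000198492.16, chromosome 1, 28736621 to 28769775, plus strand), had the highest CPM of the 10. It measured 213.9, 223.6 and 218.8 CPM in Scramble and 150.9, 158.2 and 157.8 CPM in DIS3-sh1. The groups did not overlap, and the log2 fold change was -0.49 ± 0.03 (adjusted p = 8.01e-15).

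YTHDF3 (ENSG00000185728.17, chromosome 8, 63168553 to 63212786, plus strand) was not called. It measured 81.1, 83.3 and 84.4 CPM in Scramble and 69.4, 81.8 and 82.4 CPM in DIS3-sh1, so the groups overlapped and replicate 1 alone was clearly lower. The log2 fold change was -0.09, with a 95% interval of -0.19 to 0.01 (adjusted p = 0.110). Without DIS3-sh1 replicate 1 it was -0.01 (0.846). Without replicate 2 or 3 of DIS3-sh1 it was -0.13 in both cases and was called (0.0460 and 0.0349).

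**Figure D2:**
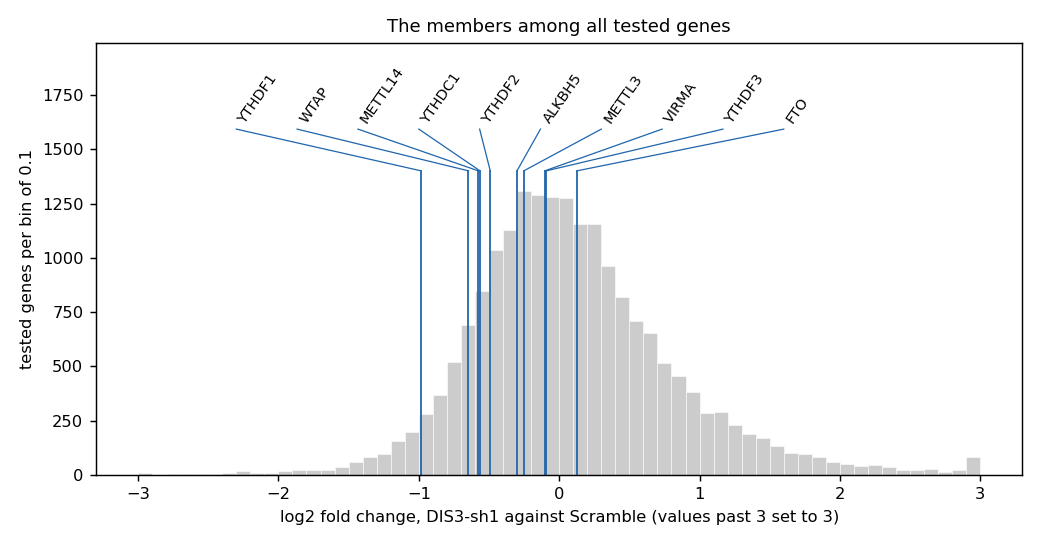
Histogram of log2 fold changes, DIS3-sh1 against Scramble, over 19591 tested genes in bins of 0.1, with a blue line for each of the 10 genes. Of the 10, 9 lie below 0, YTHDF1 is farthest to the left and FTO alone lies above 0.

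The YTHDF paralogs shared no stretch of 75 bases with each other. Such stretches from YTHDF1 and YTHDF3 transcripts were found in no other annotated gene, and the same held for VIRMA and YTHDC1. For YTHDF2, 4.69% of such stretches also occur in the pseudogene YTHDF2P1. For WTAP the share was 6.15%, from SOD2 and AL158050.1.

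Ratios within a library do not depend on scaling between libraries. They are given here per kb of annotated exon and as a description, since 3 libraries against 3 cannot go below p = 0.10 in an exact test. The change of a ratio between the groups does not depend on the lengths used, but its size does. With the length of 1 principal transcript per gene, Scramble YTHDF3 was above YTHDF1 (34.98 against 29.6 CPM per kb). On that length, VIRMA was below METTL3 (20.6 against 29.8 CPM per kb). None of the 6 ratios overlapped between the groups, and their genes were chosen with earlier results of these data known. Taken singly, 9 of the 10 genes, 69.8% of all tested genes and 10589 of the 13816 tested coding genes did not overlap either. No such share was computed for other pairs of genes. METTL3 to METTL14 was 1.35 ± 0.05 in Scramble and 1.70 ± 0.11 in DIS3-sh1 (SD, n = 3 each). WTAP to METTL3 went from 2.09 ± 0.18 to 1.58 ± 0.06, and VIRMA to METTL3 from 1.22 ± 0.06 to 1.35 ± 0.06. The RNAs of the writer complex were in other proportions in the DIS3-sh1 libraries than in the Scramble libraries.

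Proportions of readers and erasers also differed. YTHDF3 to YTHDF1 measured 0.44, 0.47 and 0.46 in the Scramble libraries and 0.76, 0.89 and 0.88 in the DIS3-sh1 libraries, a mean 1.86 times as high. YTHDF2 to YTHDF1 went from 1.92 ± 0.08 to 2.70 ± 0.06. ALKBH5 to FTO fell from 13.6 ± 0.81 to 10.1 ± 0.78.

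**Figure D3:**
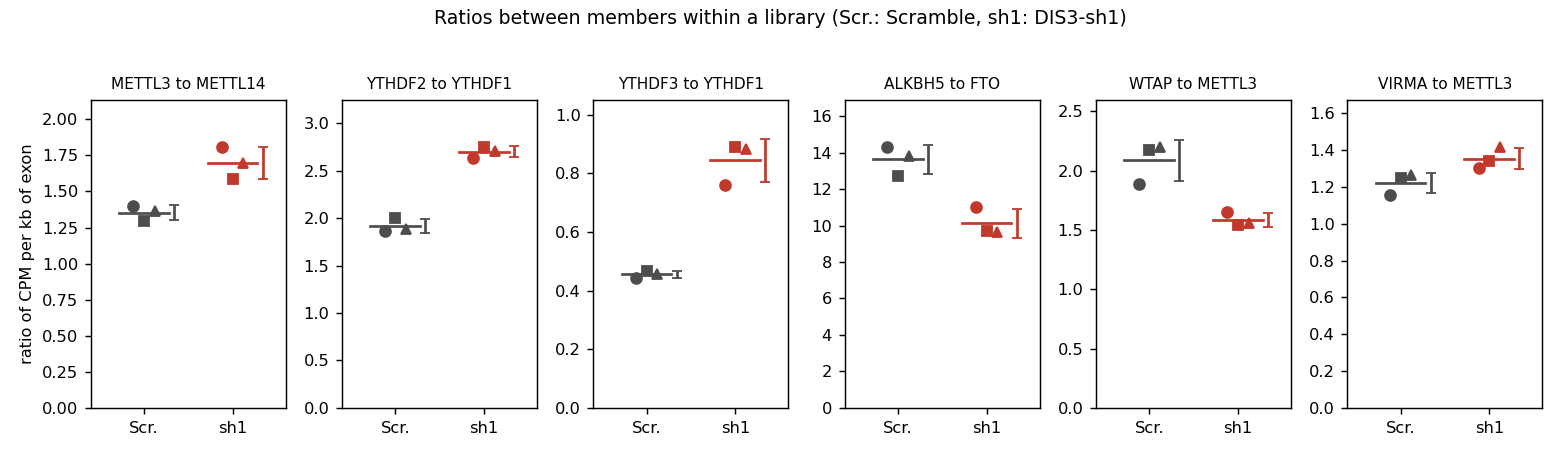
Ratio of CPM per kb of exon between pairs of genes in each library, with group means (lines) and SD (bars, n = 3) on axes from 0. The groups are separate in all 6 panels. The size of each ratio depends on the exon lengths used, and its change between the groups does not. YTHDF3 to YTHDF1 shows the widest gap, 0.46 ± 0.01 in Scramble against 0.84 ± 0.07 in DIS3-sh1.

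To compare levels between genes, CPM were divided by the length of all annotated exons of the gene. On that scale the Scramble order was YTHDF2 (56.7 ± 1.252 CPM per kb), ALKBH5 (49.5 ± 2.04), YTHDF1 (29.6 ± 0.58), WTAP (21.2 ± 1.21), YTHDC1 (15.9 ± 0.22), YTHDF3 (13.5 ± 0.27), VIRMA (12.5 ± 0.23), METTL3 (10.2 ± 0.33), METTL14 (7.55 ± 0.32) and FTO (3.64 ± 0.08). No neighbours in that order overlapped over the Scramble libraries. In DIS3-sh1, YTHDF2 (40.3 ± 1.06 CPM per kb) and ALKBH5 (40.2 ± 2.90) overlapped, as did WTAP with YTHDF3 and YTHDF3 with VIRMA. YTHDC1 moved from the fifth place to the seventh.

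The order depends on which length is used, because annotated exons include long minor transcripts. With the length of the principal transcript, a choice made after seeing the data, METTL3 stood at 29.8 ± 0.98 CPM per kb in Scramble and YTHDF3 at 34.98 ± 0.71. YTHDF2 (74.8 ± 1.65) and ALKBH5 (57.5 ± 2.37) remained the highest and METTL14 (7.76 ± 0.33) and FTO (6.61 ± 0.14) the lowest. Between them WTAP and YTHDF3, YTHDF3 and YTHDC1, and METTL3 and YTHDF1 overlapped.

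Further writer genes gave a mixed picture. The list held methyltransferases and also complex subunits and cofactors that are not methyltransferases. Of 9, 5 fell, 1 rose and 3 (RBM15B, METTL5 and ZCCHC4) were not called (median log2 fold change -0.16). The genes that fell were METTL16, ZC3H13, RBM15, CBLL1 and TRMT112, of which only METTL16 is a methyltransferase. Among tested coding genes, 38.7% were called lower and 36.2% higher. METTL16, which methylates U6 small nuclear RNA and the MAT2A transcript, averaged 104 ± 1.11 CPM in Scramble against 73.0 ± 1.62 CPM in DIS3-sh1, and fell by 0.51 ± 0.04 on the log2 scale (adjusted p = 6.13e-13). ZC3H13, another subunit of the WTAP-VIRMA complex, measured 179.1, 181.3 and 177.1 CPM in Scramble and 117.6, 133.8 and 132.9 CPM in DIS3-sh1, a log2 fold change of -0.48 ± 0.04. The gene that rose was PCIF1, which methylates the adenosine next to the mRNA cap. PCIF1 measured 19.9, 22.0 and 21.8 CPM in Scramble and 39.5, 38.5 and 35.7 CPM in DIS3-sh1 (log2 fold change 0.84 ± 0.07, adjusted p = 8.78e-13).

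Readers outside the chosen 10 also went both ways, with 4 of 9 lower, 2 higher and 3 not called (median -0.05). The shares of tested coding genes were 38.7% lower and 36.2% higher. HNRNPC and RBMX, which bind RNA that m6A has unfolded, fell by 0.55 ± 0.03 and 0.35 ± 0.02 on the log2 scale. IGF2BP1, an oncofetal m6A reader, fell from 844 ± 5.16 to 747 ± 0.15 CPM. YTHDC2, a helicase and the fifth YTH-domain protein, rose by a log2 fold change of 0.14 ± 0.04 (adjusted p = 0.00363). PRRC2A rose by 0.09 ± 0.03, a call lost with DESeq2 (adjusted p = 0.0620) and without Scramble replicate 2 (0.0801). HNRNPA2B1, named after its values were seen, had the largest fall of the list, with 1379 ± 20.5 CPM in Scramble against 606 ± 50.2 CPM in DIS3-sh1 (-1.19 ± 0.06, adjusted p = 1.79e-05) and DIS3-sh1 replicate 1 lowest at 549 CPM.

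Genes of the S-adenosylmethionine cycle, which supplies the methyl group, split. MAT2A, the catalytic subunit of the synthetase, measured 338.1, 336.4 and 333.1 CPM in Scramble and 146.1, 150.4 and 145.3 CPM in DIS3-sh1. That is 43.9% of the Scramble level (log2 fold change -1.19 ± 0.03, adjusted p = 2.32e-25), the lowest among the 31 genes of the 10 and the 3 lists shown in the plot of pathway fold changes. HNRNPA2B1 was nearly equal, also at 43.9% after rounding. Exons of GGCX on the opposite strand cover 12.4% of MAT2A's exonic bases. AHCY, which clears the by-product of methylation, rose from 293 ± 1.89 to 389 ± 16.5 CPM (0.41 ± 0.03, adjusted p = 7.69e-14). MAT2B, the regulatory subunit, was at 51.02 ± 1.63 and 50.8 ± 0.61 CPM and was not called (95% interval of the log2 fold change -0.11 to 0.09).

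**Figure D4:**
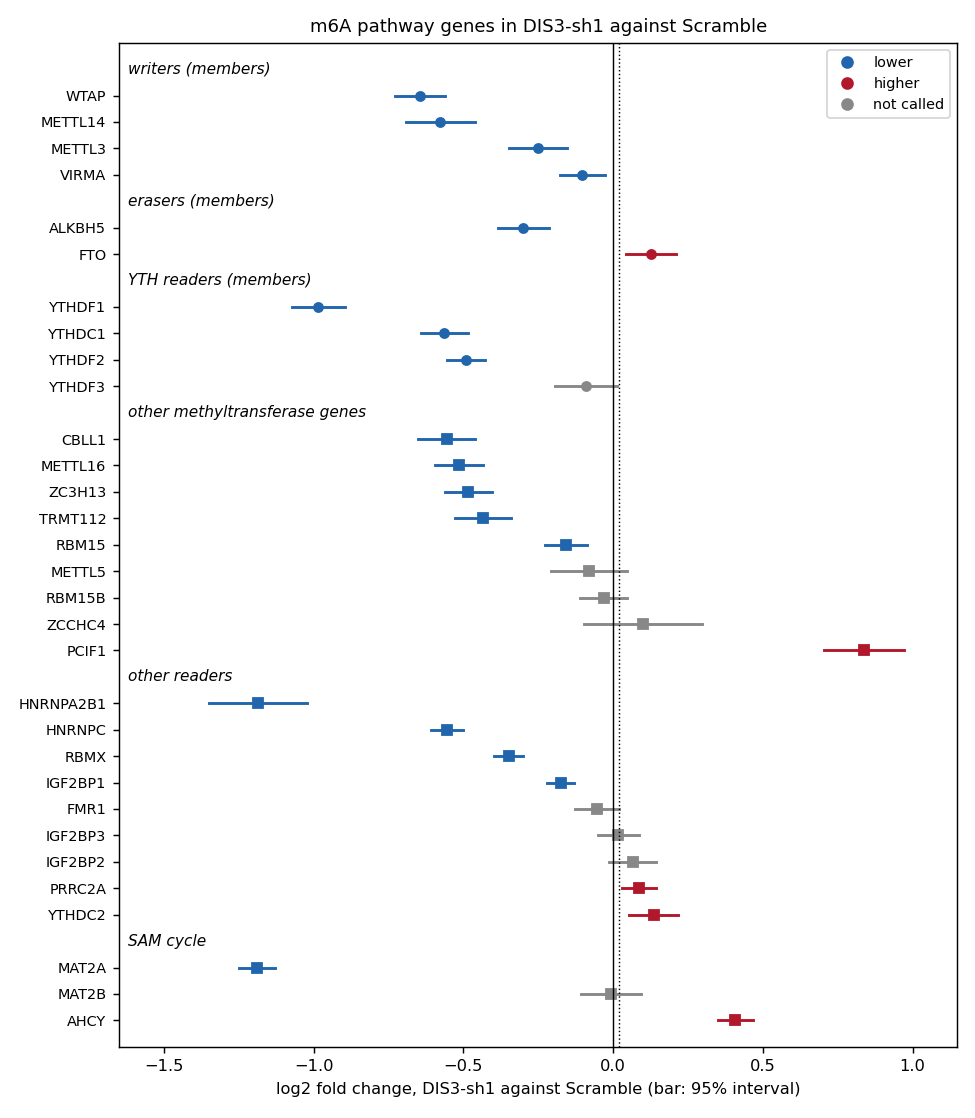
Log2 fold change, DIS3-sh1 against Scramble, with 95% intervals. Circles are the 10 genes. Squares are the further writer list, other readers and genes of the S-adenosylmethionine cycle. The further writer list is labelled other methyltransferase genes in the plot and includes genes that are not methyltransferases. The dotted line is the median of all tested genes (0.02). Blue points were called lower, red higher and grey not called. PCIF1 (0.84) lies farthest to the right, and MAT2A and HNRNPA2B1 (both -1.19) farthest to the left.

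Genes for proteins that work with the readers were mostly lower. Of 12 genes of the CCR4-NOT complex and m6A-linked decay, 9 fell, 1 rose and 2 were not called (median -0.23), with CNOT7 at -0.79 ± 0.04 and CNOT11 at -0.52 ± 0.04. All 4 splicing and export partners of YTHDC1 fell, among them SRSF3 (-0.88 ± 0.03) and SRSF7 (-1.14 ± 0.03). As for the other lists, these counts stand against 38.7% of tested coding genes and 32.6% of all tested genes called lower.

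**Figure D5:**
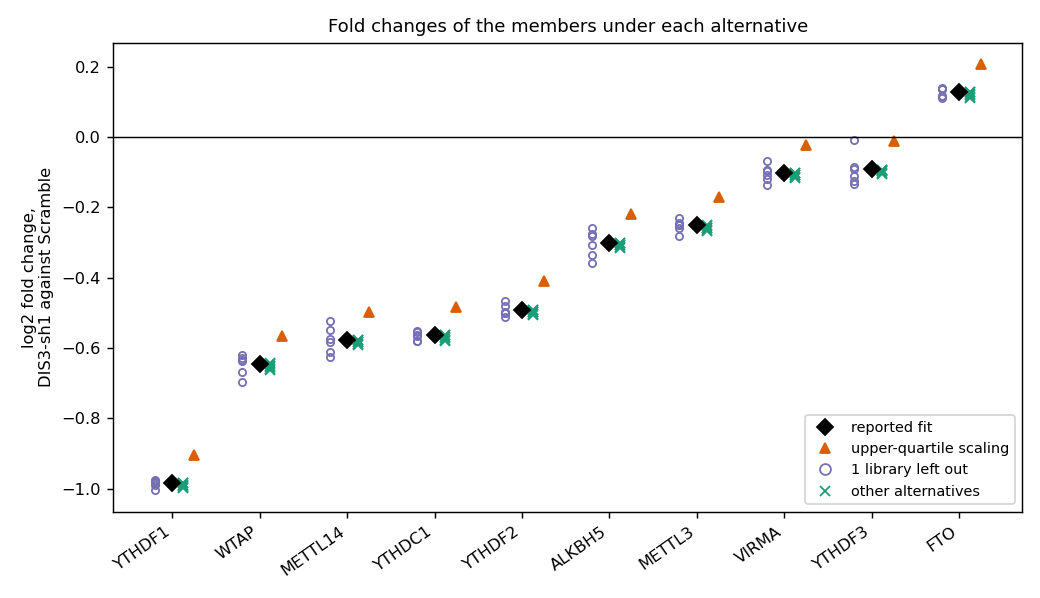
Log2 fold change of each of the 10 genes in the reported fit (diamonds), with upper-quartile scaling (triangles), with 1 library left out (circles) and under the other alternatives (crosses). Upper-quartile scaling places every gene higher, with VIRMA at -0.02 and YTHDF3 at -0.01, and no gene crosses 0.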

How the data were processed

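RNA was measured in libraries of 293T cells made, per the labels' protocols, from TRIzol-extracted total RNA after RiboMinus depletion with a stranded total RNA kit. The deposited values are expected counts per gene: read counts that need not be whole, of which 53.2% to 56.0% per library were whole. The submitters' processing notes name featureCounts 1.5.1, HISAT2 2.1.0, Bowtie2 2.3.5 and SAMtools, and build hg38. Their roles and settings, the annotation and the use of strand are not given in the sources used here. Of 9 columns of values, 3 matched no sample label and were not used, so the comparisons planned for DIS3-sh2 were not made.

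Counts were rounded and tested with edgeR 4.0.16 (R 4.3.3): TMM scaling, expression filter by group, group as the only term, robust quasi-likelihood F-test, two-sided, called at an adjusted p under 0.05. SE was obtained from the fold change and its F statistic. Exon lengths, coordinates and transcripts came from GENCODE 29. The lowest count of any of the 10 in a library was 688. Intervals of 95% use the degrees of freedom of the test. Named were DIS3, the 10 genes, and 2 genes of each partner list. From each further list of writers, readers or the S-adenosylmethionine cycle came the 3 smallest p with any gene called against its list. Genes, lists and the naming rule were chosen with earlier results of these data known. Alternatives were RLE and upper-quartile scaling, no filter, DESeq2 1.42.0, limma-voom (limma 3.58.1), the replicate number as a block, small structural, ribosomal and mitochondrial RNA genes left out, and each library left out.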

Additional observations from a re-analysis of the deposited data

How the results depend on the processing

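Of the 10 genes, 7 kept their direction and their call under all 13 alternatives. VIRMA, FTO and YTHDF3 did not. With DESeq2, 0 of the 10 were called higher, against 1 in the reported fit, with 1 higher at an unadjusted p under 0.05 and 1 called with limma-voom. Between 7 and 9 of the 10 were called lower with 1 library left out. MAT2B, not called, changed sign with upper-quartile scaling (0.075), without Scramble replicate 1 and without DIS3-sh1 replicate 2, and ran from -0.037 to 0.011 with 1 library left out. The causes were not tested. Over all genes, 6751 were higher and 6379 lower, and 7745 and 5471 with upper-quartile scaling, which moved the median over all tested genes from 0.02 to 0.10 (log2). With the replicate number as a block, 6769 were higher and 6397 lower, and 8 of the 10 fell. Deviations of same-numbered libraries correlated at 0.06, 0.02 and 0.0004, so the numbers were not taken to pair them. Neither Scramble replicate 2 nor Scramble replicate 3 correlated best with its own number. Depth limits ZCCHC4 (12.5 CPM in Scramble) more than any of the 10.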
